A study of Bos grunniens x Bos taurus and Bos grunniens with 6 samples.

Results

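The genes examined here help to make the programmed DNA breaks of meiosis, to choose where they fall or to read the marks at these sites. They were listed by symbol as PRDM9, ZCWPW1, ZCWPW2, SPO11, MEI1, MEI4, REC114, ANKRD31, HELLS and CXXC1, and every gene of the deposited table with one of these symbols was kept as its own row. Of the 10 symbols 9 were found, on 10 of the 18918 genes of the table, since ZCWPW2 stands on 2 genes. No gene of the table carried the symbol PRDM9, which was therefore not analysed here. As 1026 genes of the table carry no symbol, PRDM9 could be among them unnamed. The libraries are from testis tissue of 3 cattle-yak and 3 yak, all male and 4 years old, with 1 library per animal. Cattle-yak are F1 hybrids of a Jersey cattle sire and a Gannan yak dam and are sterile as males, and the yak are Gannan animals. The groups came from different counties, and per the study's methods cattle-yak were castrated while yak testes were removed from euthanised animals, and these conditions cannot be told apart from the hybrid state. Reads of both groups were mapped to the yak genome, although one parent of the cattle-yak is cattle.

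In early meiotic prophase SPO11, an enzyme related to topoisomerases, cuts both DNA strands with the help of accessory proteins that assemble on the chromosome axis, among them REC114, MEI4, IHO1, ANKRD31 and MEI1. The cut sites are chosen by PRDM9, which binds DNA through a zinc finger array and places trimethyl marks on the neighbouring histones. HELLS and CXXC1 bind PRDM9, and ZCWPW1 and ZCWPW2 read its marks. In mice PRDM9 is known for its part in hybrid male sterility, in which chromosomes of crossed subspecies fail to pair.

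Values are FPKM, that is fragments scaled to the length of the gene and the total of the library, so levels can be compared between genes. The library totals behind them, recovered from the steps of the values, ran from 12991641 to 13136129 fragments in yak and, lower, from 11175100 to 11834987 in cattle-yak. These are not the reads sequenced per library, which the paper gives at similar numbers in both groups. The 10 genes held 7 to 2447 fragments each in a library. All 10 passed the minimum mean of 0.5 FPKM for the comparison of the groups, which was made with limma on log2 (FPKM + 1) over 15042 genes. Calls needed an adjusted p (Benjamini-Hochberg) below 0.05 together with a log2 (foldchange) beyond 1 in either direction. The added 1 makes the change of genes with low values look smaller than it is.

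Of the 10 genes, MEI4, HELLS and ZCWPW1 rose in cattle-yak, REC114 fell, and 6 were not called. With libraries centred on Sertoli cell markers these counts became 0 higher and 8 lower, beside 28 higher and 11427 lower of 15042 tested genes. Among all tested genes 33.4% were called higher and 20.8% lower, or 54.2% in either direction, and the 3 and 1 of 10 are read against this background. This background holds for the FPKM scaling. With median-of-ratios size factors 2660 of all tested genes were called higher and 4176 lower, and 2 and 2 of the 10. The paper, with DESeq, also reported more downregulated than upregulated genes. An adjusted p below 0.05 alone was reached by 6 of the 10 genes and by 81.9% of all tested genes. The values of the groups did not overlap for 5 of the 10 genes, against 84.1% of all tested genes. The median log2 (foldchange) was 0.28 over the 10 genes and 0.51 over all tested genes, and changes relative to that median are given for each gene.

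**Figure D1:**
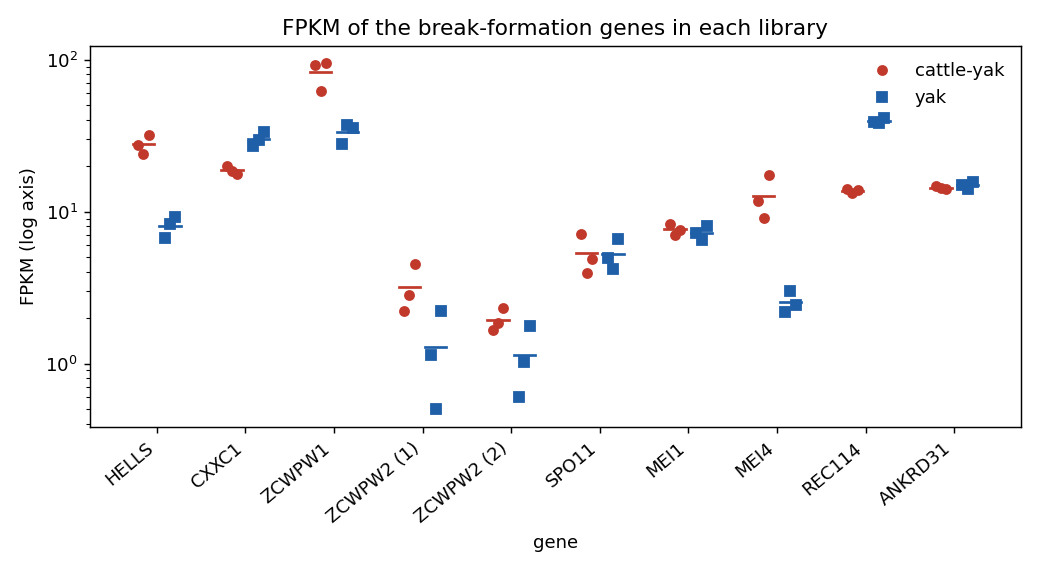
FPKM of each gene (log axis) in the 3 cattle-yak (circles) and 3 yak libraries (squares), with the group mean as a line, and the 2 genes with the symbol ZCWPW2 are numbered. MEI4, HELLS and ZCWPW1 are higher in every cattle-yak library than in any yak library, REC114 and CXXC1 are lower, and SPO11, MEI1 and ANKRD31 overlap.

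MEI4 (ENSBGRG00000004738), which forms a complex with REC114 on the chromosome axis and is needed for break formation, rose the most among the 10 genes. Its level was 11.6, 9.14 and 17.3 FPKM in cattle-yak 1, 2 and 3, and 2.19, 2.996 and 2.42 FPKM in yak 1, 2 and 3. Every cattle-yak library lay above every yak library. Yak had a mean of 2.54 ± 0.41 FPKM and cattle-yak one of 12.7 ± 4.18 FPKM (SD, n = 3), which is 5.01-fold higher. By limma the log2 (foldchange) was 1.92 with a standard error of 0.22 (adjusted p = 7.0e-05), or 1.41 above the median of all tested genes. The yak values rested on 33, 45 and 36 fragments, and those of cattle-yak on 158, 117 and 230. With the libraries centred on Sertoli markers the value was -0.38 and not past the threshold.

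REC114 (ENSBGRG00000021742), the partner of MEI4 and a regulator of SPO11 activity, went the other way. It had 14.2, 13.2 and 13.9 FPKM in the cattle-yak libraries and 38.6, 38.2 and 41.5 FPKM in those of yak. The animals of each group lay close together and the groups were far apart. The yak mean of 39.4 ± 1.79 FPKM was 2.87-fold that of cattle-yak, at 13.8 ± 0.51 FPKM (SD, n = 3). By limma this was a log2 (foldchange) of -1.45 with a standard error of 0.098 (adjusted p = 3.2e-06), or -1.97 relative to the median of all tested genes. REC114 was called lower here and under each of the 19 alternatives tried, with values from -3.75 to -1.10. It was the most abundant of the 10 genes in yak and ranked 5 in cattle-yak.

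ANKRD31 (ENSBGRG00000010828), a large ankyrin repeat protein that binds REC114 and helps to place breaks, including those of the region shared by the X and Y chromosomes, had nearly the same level in all libraries. Its values were 14.7, 14.3 and 14.05 FPKM in cattle-yak and 14.9, 14.1 and 15.6 FPKM in yak, so the groups overlapped. Its log2 (foldchange) of -0.05 had a 95% interval of -0.29 to 0.20 (adjusted p = 0.697 from limma). Relative to the median of all tested genes it was -0.56.

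MEI1 (ENSBGRG00000009152), a further protein required for the breaks, had 8.27, 7.05 and 7.57 FPKM in cattle-yak and 7.28, 6.51 and 8.03 FPKM in yak. These ranges overlapped, and the log2 (foldchange) was 0.06 with a 95% interval of -0.25 to 0.37 (adjusted p = 0.677 from limma). SPO11 (ENSBGRG00000010307), the catalytic subunit itself, had 7.09, 3.95 and 4.86 FPKM in cattle-yak and 4.95, 4.19 and 6.57 FPKM in yak. Means were 5.24 ± 1.21 FPKM for yak and 5.30 ± 1.61 FPKM for cattle-yak (SD, n = 3). Its log2 (foldchange) was 0.00 with a 95% interval of -0.51 to 0.51 (adjusted p = 0.997 from limma), so that a change of up to 0.51 in either direction on that scale is within the error. With median-of-ratios size factors, which bring the median of all genes to 0.01, SPO11 was at -0.51 (adjusted p = 0.063 from limma), MEI1 at -0.48 (adjusted p = 0.010) and ANKRD31 at -0.63 (adjusted p = 6.9e-04). MEI1 and ANKRD31 passed the p threshold there, and neither they nor SPO11 were beyond -1. Relative to the median of all tested genes in the comparison of FPKM, MEI1 was at -0.45 and SPO11 at -0.51.

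HELLS (ENSBGRG00000025056), a chromatin remodeller that opens the sites bound by PRDM9 and also acts in DNA methylation in dividing cells, had 27.3, 24.0 and 31.9 FPKM in cattle-yak and 6.69, 8.26 and 9.22 FPKM in yak. The lowest cattle-yak value exceeded the highest yak value. Yak averaged 8.05 ± 1.27 FPKM and cattle-yak 27.7 ± 3.99 FPKM (SD, n = 3), a 3.44-fold difference. By limma the log2 (foldchange) was 1.67 with a standard error of 0.15 (adjusted p = 1.8e-05), or 1.16 above the median of all tested genes. After centring on the Sertoli markers it was -0.63 and not called. Markers of spermatogonia, the dividing germ cells before meiosis, were also called higher for 8 of 10 genes, against 33.4% of all tested genes. Their summed FPKM over the 10 was 185 to 254 in yak against 763 to 969 in the hybrids. All tested markers of Sertoli, Leydig and myoid cells were called higher as well. The part of any of these cell types in the level of HELLS was not tested.

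CXXC1 (ENSBGRG00000023942), which binds unmethylated CpG sequences and belongs to the SETD1 histone methyltransferase complexes, had 19.9, 18.5 and 17.7 FPKM in cattle-yak and 26.9, 29.6 and 33.2 FPKM in yak. The groups did not overlap, and the mean was 1.60-fold higher in yak. By limma its log2 (foldchange) of -0.65, with a standard error of 0.12 and adjusted p = 8.7e-04, was past the p threshold but not beyond 1. With median-of-ratios size factors it was -1.24 and called lower, and relative to the median of all tested genes it was -1.16. Centred on genes of early meiotic prophase it was -0.29 and no longer past the p threshold (adjusted p = 0.317 from limma).

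ZCWPW1 (ENSBGRG00000016860), which recognises the marks set by PRDM9 and promotes the repair of breaks rather than their formation, was the most abundant of the 10 genes in cattle-yak. It had 91.5, 62.2 and 94.6 FPKM in cattle-yak and 27.9, 36.9 and 35.7 FPKM in yak, without overlap. Against a yak mean of 33.5 ± 4.87 FPKM, the cattle-yak mean of 82.8 ± 17.9 FPKM (SD, n = 3) was 2.47-fold higher. By limma the log2 (foldchange) was 1.26 with a standard error of 0.18 (adjusted p = 2.4e-04), or 0.75 above the median of all tested genes. It was 0.66 and not beyond 1 with median-of-ratios size factors, and -1.03, called lower, after centring on the Sertoli markers.

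ZCWPW2, the paralog of ZCWPW1 with the same kinds of reader domain, stands on 2 genes of low level, for which the assignment of reads is uncertain. The first (ENSBGRG00000009014) had 2.21, 2.84 and 4.51 FPKM in cattle-yak and 1.14, 0.50 and 2.23 FPKM in yak. The second (ENSBGRG00000023109) had 1.67, 1.84 and 2.32 FPKM in cattle-yak and 0.60, 1.02 and 1.76 FPKM in yak. In both genes yak 3 was the highest yak library and overlapped the cattle-yak values. The log2 (foldchange) was 0.90 (adjusted p = 0.025) for the first and 0.50 (adjusted p = 0.067) for the second, both from limma and neither called. Relative to the median of all tested genes these were 0.39 and -0.02. Together the genes held 53, 60 and 90 fragments in the cattle-yak libraries and 26, 24 and 60 in those of yak. The call of the first gene turned on single animals and on the scale. It was called higher without yak 3 (1.19) or cattle-yak 1 (1.08), with pseudocounts of 0.1 (1.39) and 0.01 (1.48), as TPM (1.08) and in voom on library totals (1.46). By limma it was 0.64 without yak 2 (adjusted p = 0.085) and 0.69 without cattle-yak 3 (adjusted p = 0.078), and 0.51 with median-of-ratios size factors (adjusted p = 0.171).

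**Figure D2:**
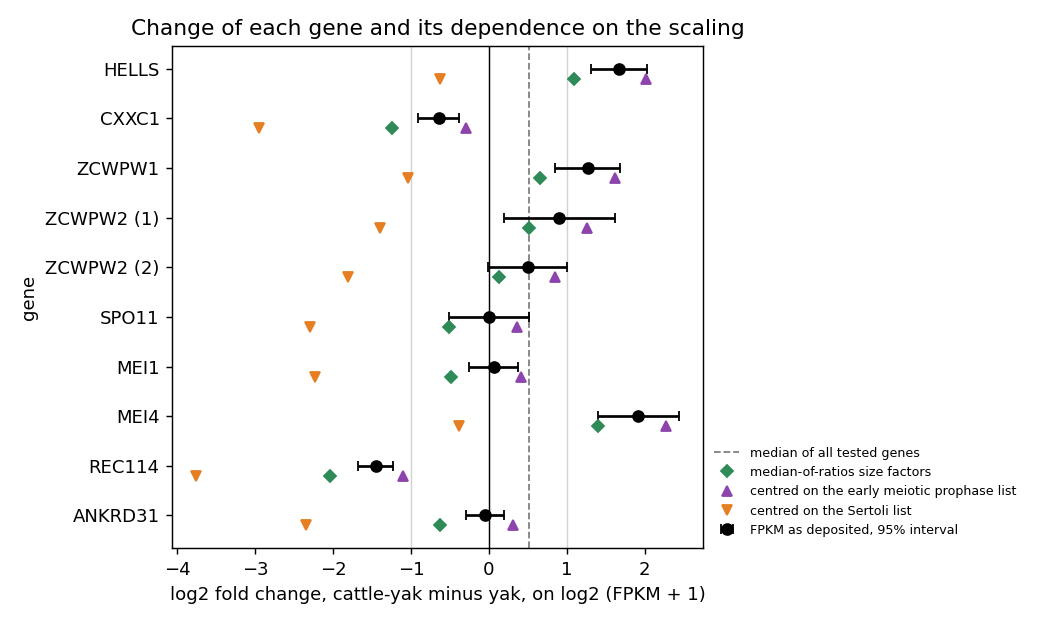
Log2 (foldchange) of each gene, cattle-yak minus yak, on log2 (FPKM + 1), with the 95% interval from limma (black) and the value under other scalings of the libraries (coloured), where the dashed line is the median of all tested genes and the light lines are at -1 and 1. REC114 lies between -3.75 and -1.10 under the scalings drawn, MEI4 and HELLS lie above 1 except after centring on the Sertoli markers, and all 10 genes lie below 0 after that centring.

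The order of the levels differed between the groups. In yak it ran REC114, ZCWPW1, CXXC1, ANKRD31, HELLS, MEI1, SPO11, MEI4 and the 2 ZCWPW2 genes. The ranges of neighbours in this order overlapped between ZCWPW1 and CXXC1, between HELLS and MEI1, between MEI1 and SPO11, between MEI4 and the first ZCWPW2 gene, and between the 2 ZCWPW2 genes. In cattle-yak the order ran ZCWPW1, HELLS, CXXC1, ANKRD31, REC114, MEI4, MEI1, SPO11 and the 2 ZCWPW2 genes. There the ranges overlapped from ANKRD31 through REC114 to MEI4, and again from MEI1 through SPO11 to the second ZCWPW2 gene. Against all genes of the table, the mean level of MEI4 exceeded that of 39.6% of genes in yak and 60.8% in cattle-yak. For REC114 these shares were 83.2% in yak and 62.4% in cattle-yak. SPO11 lay near the middle in both groups, above 49.7% and 46.8% of genes.

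The spread between animals also differed among the genes. In cattle-yak the coefficient of variation was 2.38% for ANKRD31, 3.74% for REC114 and 5.77% for CXXC1, but 30.5% for SPO11, 32.9% for MEI4 and 37.3% for the first ZCWPW2 gene. In yak it was 4.97% for ANKRD31 and 4.53% for REC114, and 67.9% for the first ZCWPW2 gene. Cattle-yak 2 had the lowest cattle-yak value for 6 of the 10 genes, and yak 3 the highest yak value for 8. The shares over all tested genes were not computed, so these counts are not particular to the 10 genes as far as known. Cattle-yak 2 also had the lowest summed FPKM of 15 genes of early meiotic prophase, with 480 against 804 in cattle-yak 1 and 641 in cattle-yak 3, and the part of this in the spread was not tested.

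A ratio of 2 genes within a library does not depend on the scaling between libraries, and so the genes were also compared with each other. All 45 pairs were compared with exact permutation tests (two-sided) of the log2 ratio, in which 3 animals against 3 cannot go below p = 0.1. In 33 pairs the groups did not overlap, each with exact p = 0.1 and an adjusted p of 0.136 over the 45 pairs. Among all pairs of tested genes above 0 in every library, 76.7% did not overlap, and the 33 of 45 are read against this background.

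Among the 45 pairs the partners MEI4 and REC114 shifted the most. The shift of a log2 ratio between the groups is the difference of the log2 changes of its genes. Of the genes examined MEI4 rose the most and REC114 fell the most, so their pair came first by construction. Its rank is therefore no separate evidence on their being partners. The FPKM of MEI4 was 0.82, 0.69 and 1.24 times that of REC114 in the cattle-yak libraries, and 0.057, 0.078 and 0.058 times in the yak libraries. The log2 ratio averaged -3.97 ± 0.26 in yak and -0.17 ± 0.43 in the hybrids (SD, n = 3), a difference of 3.80, or 13.98-fold. Both genes were thus at a like level in cattle-yak, while in yak REC114 was far more abundant.

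REC114 and ANKRD31, which also bind each other, had ratios with little spread between animals. REC114 was at 0.96, 0.92 and 0.99 times the FPKM of ANKRD31 in cattle-yak and at 2.59, 2.70 and 2.66 times in yak. The SD of the log2 ratio was 0.053 in cattle-yak and 0.030 in yak (n = 3 each), against a difference of -1.47 between the groups. HELLS was at 1.37, 1.29 and 1.80 times the FPKM of CXXC1 in cattle-yak and at 0.25, 0.28 and 0.28 times in yak.

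By contrast, the ratios among SPO11, MEI1 and ANKRD31 overlapped between the groups. SPO11 was at 0.86, 0.56 and 0.64 times the FPKM of MEI1 in cattle-yak and at 0.68, 0.64 and 0.82 times in yak (exact permutation test, two-sided, p = 0.7). The difference of the mean log2 ratios was -0.07 for this pair, 0.05 for SPO11 over ANKRD31 (exact permutation p = 0.9) and 0.12 for MEI1 over ANKRD31 (exact permutation p = 0.2). These tests do not show that the ratios were equal. ZCWPW1 over SPO11 was 12.9, 15.8 and 19.5 in cattle-yak and 5.64, 8.80 and 5.44 in yak, without overlap.

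**Figure D3:**
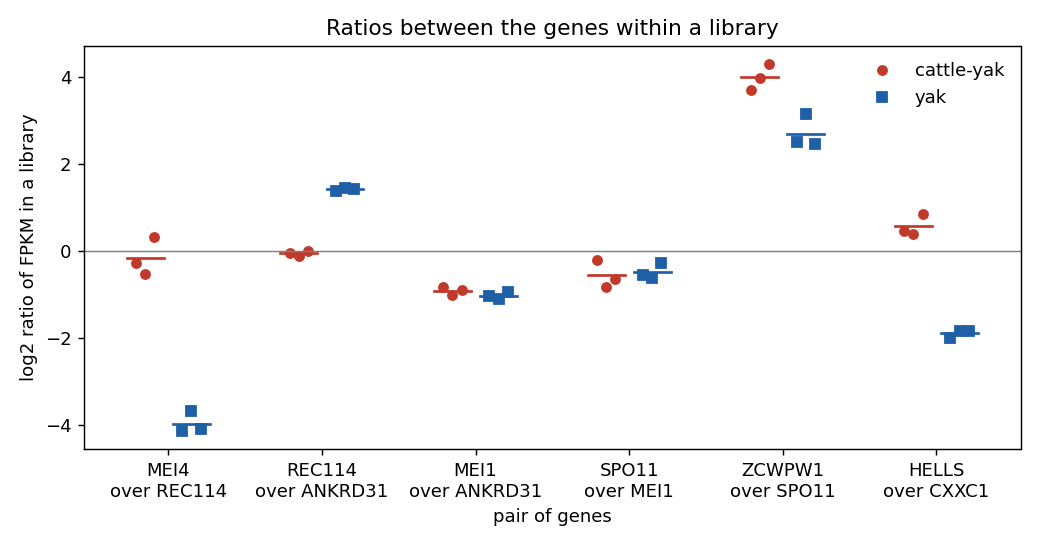
Log2 ratio of the FPKM of 2 genes within a library for 6 of the 45 pairs, in cattle-yak (circles) and yak (squares), with the group mean as a line. MEI4 over REC114 moves from -3.97 in yak to -0.17 in cattle-yak, REC114 over ANKRD31 from 1.41 to -0.06, and SPO11 over MEI1 and MEI1 over ANKRD31 overlap between the groups.

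Other genes of the pathway were taken from fixed lists, with the most abundant gene of a symbol used. Of 42 listed genes in 6 lists 37 were found and tested, and 7 were called higher and 5 lower. These counts, and those of each list, are to be read against the 33.4% higher and 20.8% lower among all tested genes. For the 37 genes together the shares were smaller, at 18.9% and 13.5%. Single lists lay on either side, with 40% higher for the HELLS partners and 0% for strand exchange. The share called lower was 33.3% for other break machinery and 0% for break end processing. With median-of-ratios size factors the counts were 3 higher and 9 lower, with centring on early prophase genes 12 and 3, and with centring on Sertoli markers 0 and 33. Over all 15042 tested genes these scalings gave, in the same order, 2660 higher and 4176 lower, 6833 and 2519, and 28 and 11427. ATM and RBBP8 were among the genes no longer called higher with median-of-ratios size factors.

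The list of other break machinery had 6 tested genes, of which 1 was called higher and 2 lower, with a median log2 (foldchange) of 0.04. IHO1 (ENSBGRG00000019151), which bears the older symbol CCDC36 in the table and joins REC114 and MEI4 to the axis, had 14.3, 5.24 and 7.99 FPKM in cattle-yak and 29.3, 24.1 and 28.3 FPKM in yak. Its log2 (foldchange) was -1.57 (adjusted p = 1.1e-03 from limma), so it fell together with REC114 while MEI4 rose. HORMAD2, an axis protein that monitors unsynapsed chromosomes, went from 147 ± 31.5 FPKM in yak down to 35.97 ± 13.8 FPKM in the hybrids (SD, n = 3). By limma this was -2.04 as log2 (foldchange), at an adjusted p = 9.9e-05. Its relative HORMAD1, which recruits IHO1, had a log2 (foldchange) of 0.53 and was not called. TOP6BL, the partner of SPO11 in the cutting complex, had 8.76, 3.99 and 6.22 FPKM in cattle-yak and 7.74, 8.27 and 8.47 FPKM in yak (log2 (foldchange) -0.37, adjusted p = 0.164 from limma). ATM, the kinase that limits the number of breaks, rose from 4.56 ± 0.36 FPKM in yak to 12.5 ± 1.66 FPKM in the hybrids (SD, n = 3), a log2 (foldchange) of 1.28. TRIP13, which removes HORMA proteins from synapsed axes, had 0.46 (adjusted p = 0.0077 from limma), not beyond 1, and was not called.

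Of the 7 genes that process the broken ends, RBBP8, which starts resection, was called higher, from 22.03 ± 3.98 FPKM in yak to 50.4 ± 3.36 FPKM in the hybrids (SD, n = 3). None of the 7 was called lower by limma, and 0 were lower at an unadjusted p below 0.05, and their median was 0.13. NBN and RAD50, which sit in one complex at the broken ends, had log2 (foldchange) values of 0.81 and 0.01 and were not called. NBN was past the p threshold (adjusted p = 3.2e-04 from limma) but not beyond 1, and RAD50 was not past it (adjusted p = 0.912). The strand exchange list had 9 tested genes, 0 called higher and 2 called lower by limma, with a median of -0.29, the 2 of 9 being near the 20.8% of all tested genes. At an unadjusted p below 0.05 and with no fold threshold HSF2BP, MND1 and PSMC3IP passed as lower and BRCA2 as higher. HSF2BP, which brings BRCA2 to the breaks, fell from 45.9 ± 3.73 FPKM in yak to 15.3 ± 2.72 FPKM in the hybrids (SD, n = 3), which is -1.54 as log2 (foldchange). MND1, which helps DMC1 to find the partner strand, had -1.04. DMC1, the meiotic recombinase that coats the broken ends, had 42.1 ± 5.76 FPKM in yak, 36.5 ± 14.7 FPKM in the hybrids (SD, n = 3) and was not called. MEIOB and SPATA22, partners that bind single-stranded DNA, had -0.66 and -0.03 and were not called either. For MEIOB the 95% interval was -1.32 to 0.008 (adjusted p = 0.063 from limma), so a fall is within the error. The paper, with DESeq, reported MEIOB as significantly downregulated in cattle-yak, and the cause of this difference was not tested. Lower calls in the strand exchange list were 4 with median-of-ratios size factors, 9 with Sertoli centring and 1 with early prophase centring.

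Among 6 tested partners of CXXC1 in the SETD1 complexes, ASH2L and RBBP5 were called higher with log2 (foldchange) values of 1.31 and 1.86, and 0 were called lower, with a median of 0.93. At an unadjusted p below 0.05, 4 were higher and 2 lower by limma. The counts of these partners were 1 higher and 1 lower with median-of-ratios size factors, and 3 higher and 0 lower as TPM or with quantile scaling. The table holds 2 genes with the symbol RBBP5, so its value is uncertain. DPY30 and WDR82, the most abundant of the list, had -0.25 and 0.87 and were not called, and WDR82 also stands on 2 genes. Both were past the p threshold (adjusted p = 0.023 and 2.0e-04 from limma) but not beyond the fold threshold. Of 4 tested partners of PRDM9, the methyltransferase EHMT1 was called higher at 1.80 and the chromodomain protein CDYL lower at -1.03, with a median of 0.07. The related methyltransferase EHMT2 had 0.25 and was not called. With quantile scaling or with early prophase centring 0 of the 4 partners of PRDM9 were called lower. EWSR1, which links PRDM9 to the axis, had 89.8 ± 0.65 FPKM in yak, 83.6 ± 9.36 FPKM in the hybrids (SD, n = 3) and was not called. Among 5 genes that act with HELLS in chromatin and DNA methylation, CDCA7 and CDCA7L were called higher, at 1.20 and 2.17, and 0 were called lower by limma, with a median of 0.37. At an unadjusted p below 0.05, 4 of the 5 were higher and 1 lower, beside 81.9% of all tested genes with an adjusted p below 0.05. The counts were 1 higher and 1 lower with median-of-ratios size factors, and 2 higher and 1 lower as TPM or with quantile scaling. UHRF1 and DNMT1, which maintain DNA methylation, had 0.37 and 0.32 (adjusted p = 0.015 and 0.018 from limma), not beyond 1, and were not called.

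Markers of several cell types of the testis also differed between the groups. Of 10 spermatogonial markers 8 were called higher and 0 lower by limma, and 9 were higher and 0 lower at an unadjusted p below 0.05, with a median log2 (foldchange) of 1.78 and with NANOS2 at 0 in a yak library. The 11 Sertoli, 6 Leydig and 6 myoid markers tested were all called higher, with medians of 2.24, 1.98 and 2.01. The Sertoli markers summed to 502 to 569 FPKM in yak but to 2493 to 2648 FPKM in the hybrids. Of 15 tested genes of early meiotic prophase, the stage of break formation, 1 was called higher and 2 lower, with a median of -0.17 and sums of 928 to 1012 FPKM in yak against 480 to 804 FPKM in the hybrids. This list shares HORMAD1, HORMAD2, DMC1, MEIOB and SPATA22 with the pathway lists. All 3 genes of later spermatocytes, 4 of round spermatids and 5 of elongating spermatids that were tested were called lower, with medians of -3.31, -5.04 and -7.89. Elongating spermatid markers summed to 8133 to 9917 FPKM in yak and to 13.3 to 68.8 FPKM in the hybrids. For 6 endothelial markers 2 were called higher and 1 lower (median 0.70), and for 5 macrophage markers 2 higher and 2 lower (median 0.90). The endothelial counts are near the 33.4% and 20.8% of all tested genes. In bulk tissue, fewer cells of a type and less RNA per cell cannot be told apart, and the part of the cell makeup in the changes of the 10 genes was not tested.

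Set against the early prophase genes, by shifting the log2 values of each library by the mean level of the 15 genes, MEI4 was at 2.27, HELLS at 2.02, ZCWPW1 at 1.62 and the first ZCWPW2 gene at 1.26, all called higher. REC114 was at -1.10 and still called lower. MEI1, SPO11 and ANKRD31 were at 0.42, 0.36 and 0.31 and were not called, nor was CXXC1 at -0.29. With this shift 6833 of all 15042 tested genes were called higher and 2519 lower, and the counts above are read against this. The shift brought the median of all tested genes to 0.87, and centring on the Sertoli markers brought it to -1.79.

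**Figure D4:**
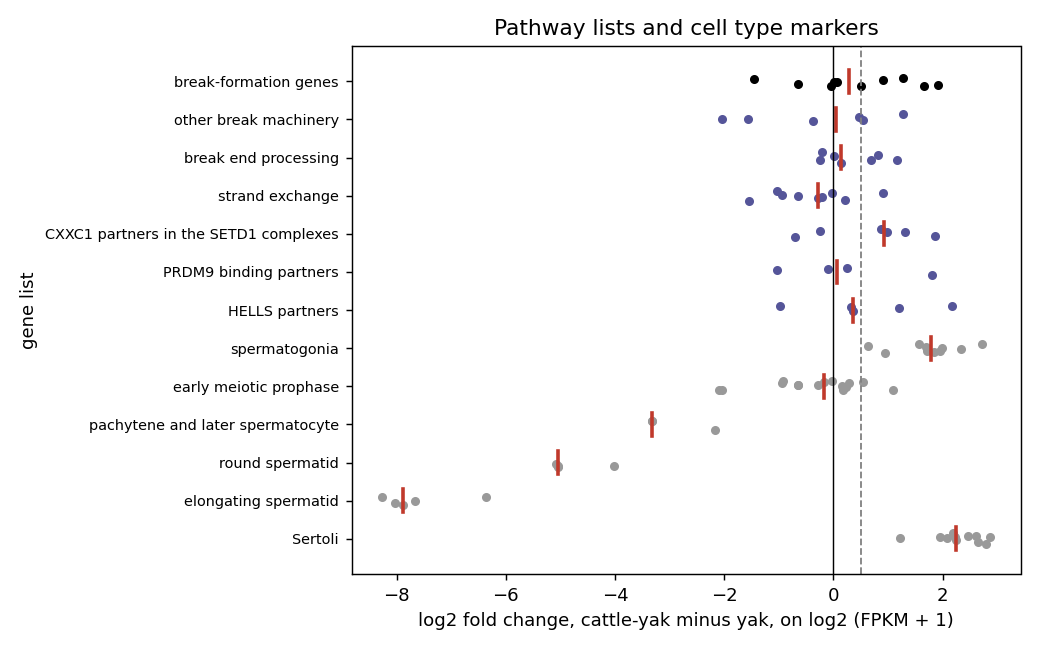
Log2 (foldchange), cattle-yak minus yak, of each tested gene (points) in the 10 genes examined (labelled break-formation genes), the 6 pathway lists and 6 marker lists, with the median of a list as a red line and that of all tested genes as a dashed line. The 10 genes lie between -1.45 and 1.92 with a median of 0.28, the spermatogonial markers have a median of 1.78 and those of later spermatocytes one of -3.31.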

How the data were processed

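Each library was from testis tissue of 1 animal (TES5, TES6 and TES7 for cattle-yak 1 to 3, Yak8, Yak9 and Yak10 for yak 1 to 3). Per the methods, the authors mapped reads with HISAT2 to the yak genome LU_Bosgru_v3.0 and deposited FPKM values, for which the methods name Cufflinks (versions not given in the sources used here). Because the values come back as whole fragments, which tool gave the fragments is uncertain. The steps of the values gave back whole fragments (tolerance 0.03) for 17967 of the 17973 genes that are above 0 in at least 2 libraries, and 99.2% of 17229 gene lengths checked came out whole to 0.02 bases. Intervals cover the spread between animals, and fragments without molecular identifiers are not independent molecules.

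Genes with a mean of at least 0.5 FPKM were compared two-sided by limma 3.58.1 (R 4.3.3, moderated by eBayes along a variance trend) after adding a pseudocount of 1, with the study's thresholds. A count test was not the main test because FPKM were deposited. Both steps were tested on simulated data. Ratios, counts and figures were made with Python 3.11.15, numpy 2.4.6, pandas 2.3.3, scipy 1.17.1 and matplotlib 3.10.9. The genes and lists were chosen with earlier results of these data known. Named genes are all 10 rows and, from each pathway list, every called gene or the 3 most abundant. TOP6BL, PSMC3IP and BRCA2 lie outside this rule and were named after their values were seen. Alternatives were smaller pseudocounts (0.1 and 0.01), a minimum of 5 FPKM or none, 5 other scalings, a robust or untrended limma, voom on the recovered fragments, calls by p alone and the omission of each animal. Sequences of the genes were not used here.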

Additional observations from a re-analysis of the deposited data

How the results depend on the processing

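The counts over the 10 genes depended most on the scaling. With libraries centred on the Sertoli markers, 0 of the 10 genes were called higher and 8 lower, and with median-of-ratios size factors, on the FPKM or in voom, 2 were called lower. With adjusted p alone as the rule 2 were lower. Over all tested genes the higher calls were 2660 with median-of-ratios size factors, 28 with Sertoli centring and 7916 with adjusted p alone, against 5023 in the main comparison. The lower calls were 4176 with median-of-ratios size factors and 11427 with Sertoli centring, against 3136. Early prophase centring gave 6833 higher and 2519 lower calls over all tested genes. For the pathway lists, 3, 0 and 12 genes were called higher with median-of-ratios, Sertoli and early prophase scaling, and 9, 33 and 3 lower. Sertoli centring turned the sign of ZCWPW1 (-1.03), both ZCWPW2 genes (-1.39 and -1.80), SPO11 (-2.30), MEI1 (-2.23), MEI4 (-0.38) and HELLS (-0.63). Values near 0 changed sign elsewhere: SPO11 to -0.0012 and -0.0015 with the smaller pseudocounts, -0.51 with median-of-ratios, -0.25 with quantile scaling and -0.63 in voom with size factors, MEI1 to -0.48, -0.24 and -0.56 in the last 3, and ANKRD31 to 0.31 with early prophase centring. With each animal left out, SPO11 ranged from -0.19 to 0.16 and MEI1 from -0.0049 to 0.13, while MEI4, HELLS, ZCWPW1 and REC114 stayed called. REC114 was called lower in all 19 alternatives. Each centring shifts all genes by its reference level by construction, and the cause of the other changes was not tested. The ZCWPW2 genes could not be tested at the minimum of 5 FPKM. No paired analysis was possible because the labels give the groups no shared replicate numbers. Depth limits the ZCWPW2 genes most, with 7 to 56 fragments in a library.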
